A study of Mus musculus with 9 samples.

Results

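The genes described here are the Rab GTPases of CD11b+ cells sorted from mouse gliomas. They were selected on measured values: a protein-coding gene had to carry a Rab symbol, which leaves out effectors and Rab-like genes, and to have 10 or more raw counts in each of the 9 libraries. Of 59 Rab genes in the count table, 41 met that rule and are called members below, and 18 did not. Because the minimum holds in every library, the rule also removed any Rab gene that dropped below 10 counts in a single library, so the 41 members are not all Rab genes that these cells may express.

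Rab proteins are small GTPases that mark the membranes of the cell. Loaded with GTP by exchange factors and switched off by GTPase-activating proteins (GAPs), each Rab recruits effectors and tethers that move, dock or fuse a given class of vesicles, and GDI carries the inactive, prenylated protein back through the cytosol. In macrophages and microglia, Rab proteins order the maturation of endosomes and phagosomes, the return of receptors to the surface, the delivery of cargo to lysosomes, and the secretion of cytokines, granules and exosomes.

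The study asked how an arginase inhibitor and an antibody against the checkpoint receptor PD-1, alone or together, act on experimental glioma. Male C57BL/6J mice aged 10 to 12 weeks carried GL261 glioma cells, a syngeneic mouse line marked with tdTomato and luciferase, and CD11b+ cells were taken by flow sorting from the hemisphere that held the tumor. CD11b is carried by most myeloid cells and by part of the NK and dendritic cells, so the poly-A RNA, sequenced from the whole sort, comes from a mixture of cell types. CTR mice (n = 2) received saline by gavage. OAT-1746 mice (n = 2) received OAT-1746, an inhibitor of arginase 1 and 2, by gavage at 50 mg/kg, 2 times a day. The anti-PD-1 group (n = 2) was injected intraperitoneally with 2.5 mg/kg of the antibody, and COMB mice (n = 3) received both agents. The collection day is given as 28 in one place of the study's text and as 21 in another. One library, anti-PD-1 replicate 2, is labelled anti-PD-2 under treatment but anti-PD-1 in its title, and the title was followed. The study describes the libraries of each group as biological replicates. The labels tie no library to an animal, and p-values measure the spread between these samples.

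Total counts ran from 13048075 in COMB replicate 1 to 18796479 in anti-PD-1 replicate 2, and levels are given as TMM-normalized CPM, each library's counts scaled to a common total. Itgam, which encodes CD11b, stood at 302 and 369.5 CPM in CTR, 445 and 446 in OAT-1746, 294 and 327 in anti-PD-1, and 366, 307 and 328 in COMB, so the gene behind the sort was detected in every library. OAT-1746 replicate 2 stood apart from the other libraries. Its correlation with them across genes on the log CPM scale was 0.911 to 0.956, against 0.960 to 0.989 among the other 8 libraries. Both OAT-1746 libraries also had less of their counts in ribosomal protein genes, 3.21% and 2.51% against 4.76% and 4.34% in CTR and 3.89% to 5.37% in the remaining libraries. Mitochondrial genes took 2.46% and 2.26% of counts in OAT-1746, 1.32% and 1.10% in CTR, and 0.779% to 1.61% elsewhere. Whether these differences bear on the Rab values was not tested. Counts at an unadjusted p under 0.05 are also given without replicate 2 for members and, in OAT-1746 vs CTR only, for regulators. So are those members' log2 fold changes in OAT-1746 vs CTR that are printed below and moved by over 1.5 times.

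Together the 41 members took 0.395% and 0.408% of all counts in CTR, 0.390% in OAT-1746 replicate 1, 0.399% and 0.384% in anti-PD-1, and 0.382%, 0.406% and 0.394% in COMB. OAT-1746 replicate 2 had the lowest share, 60504 of 16784406 counts. Per kb of exon, the scale on which genes can be set side by side, the most abundant members in CTR belonged to the endosomal path: Rab5c of the early endosome at 209 CPM per kb, Rab7 of the late endosome and maturing phagosome at 174, and Rab32 of lysosome-related organelles at 102. Rab1b and Rab1a, which both serve transport from the endoplasmic reticulum to the Golgi, followed at nearly the same level, 88.5 and 88.3 CPM per kb. Rab20, a Rab of the phagosome, came next at 71.7 and the exocytic Rab10 and Rab8b after it, both at 59.9. Rab35 led the recycling Rabs at 38.9 CPM per kb, and Rab28 led the class of cilium and other Rabs at 5.87. The lowest member per kb was Rab23, a regulator of Hedgehog signaling at the cilium, at 0.376.

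Near the count minimum, Rab4a of the recycling endosome was just inside with 14 counts in its lowest library, followed by Rab19 with 17 and Rab13 with 21. Just outside were Rab37 with 9 counts in its lowest library, Rab4b with 8 and Rab36 with 6. Other genes outside the minimum differed more between libraries, and they were picked out after their values were seen. Rab44, a large atypical Rab with a role in granule secretion, had 59 and 38 raw counts in CTR, 26 and 1 in OAT-1746, 25 and 48 in anti-PD-1, and 30, 33 and 30 in COMB. It was left out because of the single count in OAT-1746 replicate 2. Rab3c, a Rab of regulated secretion best known from neurons, had 1 and 3 raw counts in CTR, 28 and 15 in OAT-1746, 2 and 9 in anti-PD-1, and 2, 5 and 7 in COMB. Both OAT-1746 libraries had more Rab3c counts than any other library, all of them low.

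The comparison of OAT-1746 with CTR asks what arginase inhibition alone did. At an unadjusted p under 0.05, the exocytic Rab3d and Rab8a, the late endosomal Rab7b, Rab29 and Rab32, and Rab19 and Rab1b of the Golgi class were lower in OAT-1746 than in CTR, and Rab6b, Rab33b and Rab40c of the Golgi class, Rab27a of secretory lysosomes and Rab35 of the recycling endosome were higher. Of the 41 members, 21 had a higher and 20 a lower fitted value, with a median log2 fold change of 0.03 beside 0.01 over all 12538 genes tested. No member passed edgeR's quasi-likelihood test at a Benjamini-Hochberg adjusted p under 0.05 (0 of 41, beside 0% of all genes), the smallest adjusted p being 0.0620 for Rab3d and 0.0599 over all genes. At an unadjusted p under 0.05, 12 of 41 members differed, beside 32.3% of all genes: 5 were higher, beside 16.1%, and 7 were lower, beside 16.2%. DESeq2 called 6 of 41 members at an adjusted p under 0.05, beside 17.3% of the genes it adjusted. They were Rab3d (adjusted p in DESeq2 0.00392), Rab7b (0.0131), Rab6b (0.0193), Rab33b (0.0318), Rab40c (0.0329) and Rab32 (0.0499). As shares of the members these counts were 29.3% and 14.6%, close to those over all genes. The split of the calls depended on the scaling: it was 7 higher and 5 lower with library size only, beside 18.1% and 14.1% of all genes, and 10 higher and 5 lower with offsets for gene length and GC content, beside 16.2% and 16.1%. In both OAT-1746 libraries 15 of 41 members were above both CTR libraries, beside 30.8% of all genes, and 17 of 41 were below both, beside 32.1%.

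These counts depended on single libraries. So did the number of members at an adjusted p under 0.05 in edgeR, which was above 0 in some fits without 1 library. Without OAT-1746 replicate 2, the unadjusted p was under 0.05 for 4 of 41 members, beside 14.6% of all genes: Rab3d, Rab40c, Rab6b and Rab7b. All 12 members named by the smallest p kept their sign without that library. Without OAT-1746 replicate 1 the count was 19 of 41, beside 41.6%, and without CTR replicate 1 it was 3 of 41, beside 17.4%. For 34 of 41 members (82.9%) OAT-1746 replicate 2 lay farther from the CTR mean than replicate 1 did, as it did for 76.6% of all genes. Its median distance from the CTR mean over the members was 0.52 on the log2 scale, against 0.22 for replicate 1. In RNA from a mixed population, fewer cells of a type and less RNA per cell cannot be told apart.

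**Figure D1:**
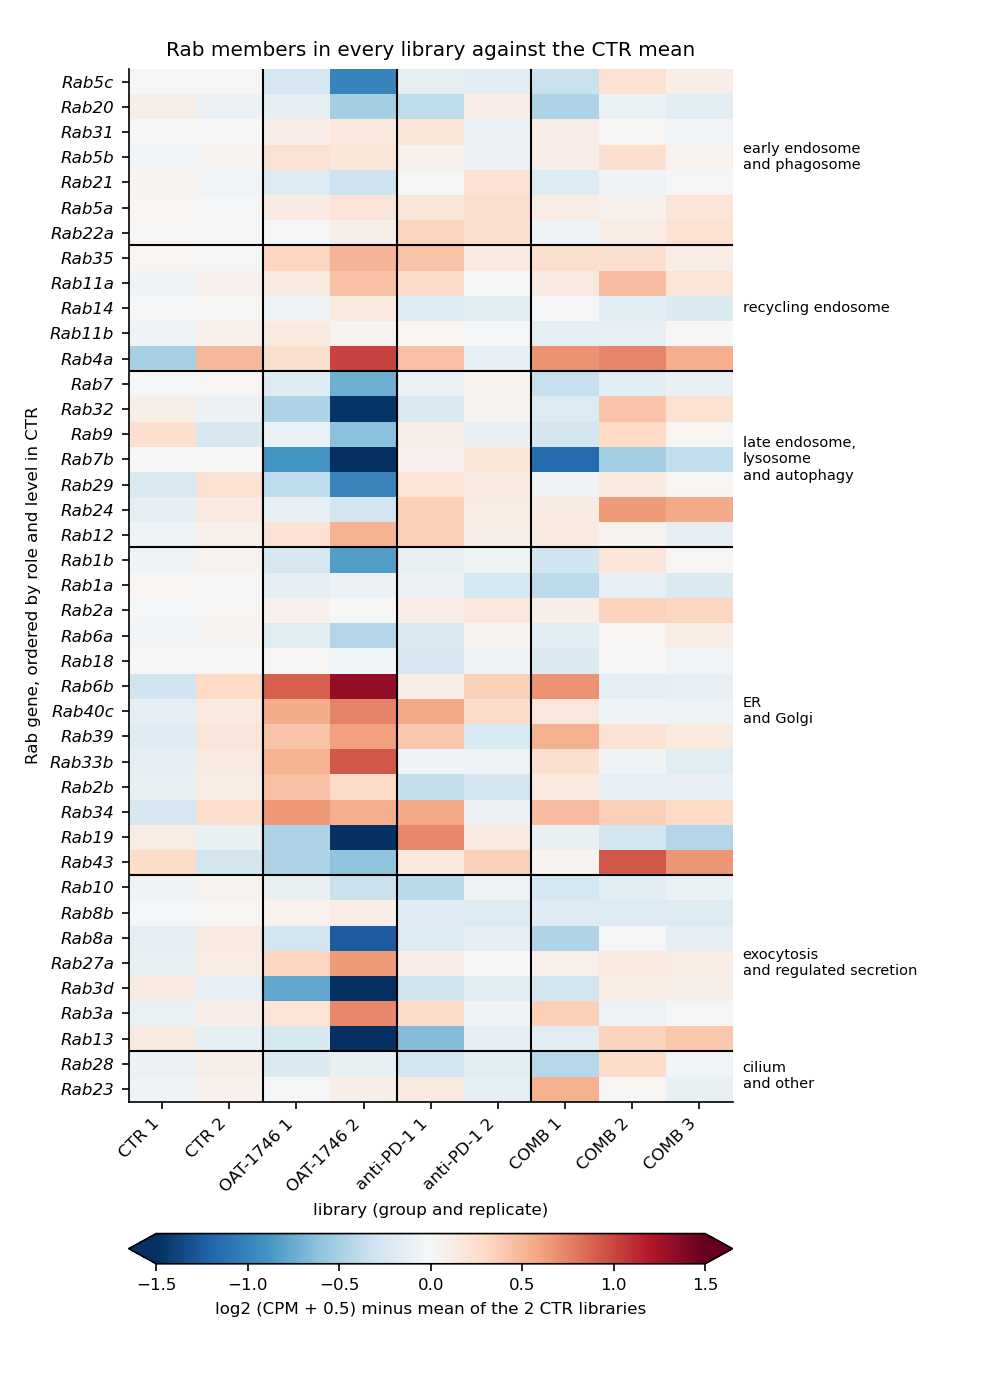
Color map of the 41 members (vertical axis, grouped by role and ordered by level in CTR) in each of the 9 libraries (horizontal axis); color gives log2 (CPM + 0.5) minus the mean of the CTR libraries. The strongest colors are in OAT-1746 replicate 2, with Rab7b, Rab19, Rab13 and Rab3d lowest and Rab6b and Rab4a highest.

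Among the 7 members of exocytosis and regulated secretion, the median log2 fold change in OAT-1746 was -0.22, and 1 member was higher and 2 were lower at an unadjusted p under 0.05 in edgeR, beside 16.1% and 16.2% of all genes. Without OAT-1746 replicate 2 the median was -0.10, with 0 higher and 1 lower, beside 8.3% and 6.33% of all genes in that fit, and it was -0.13 with library size only and -0.11 with offsets for gene length and GC content. Rab3d, which governs the release of secretory granules (ENSMUSG00000019066, chr9:21907491-21918192 on the minus strand of mm10), stood at 50.8 and 42.7 CPM in CTR, 26.9 and 15.2 in OAT-1746, 37.6 and 41.6 in anti-PD-1, and 38.4, 50.4 and 49.6 in COMB. The lowest values of all 9 libraries were the OAT-1746 libraries, and COMB overlapped both CTR and anti-PD-1. In edgeR the difference from CTR was -1.15 on the log2 scale (SE 0.26, unadjusted p = 0.00170), and without OAT-1746 replicate 2 the log2 fold change was -0.78. Rab8a, which carries cargo to the plasma membrane, stood at 211 and 254 CPM in CTR, 189.8 and 97.5 in OAT-1746, 201 and 209 in anti-PD-1, and 169, 228 and 211 in COMB. OAT-1746 replicate 2 was far below every other library, while replicate 1 lay above COMB replicate 1 (log2 fold change -0.69, SE 0.29, unadjusted p = 0.0388). Without replicate 2 the Rab8a value was -0.28. Rab27a, needed for the docking of secretory lysosomes and exosome-releasing bodies, differed in the other direction, at 52.8 and 61.8 CPM in CTR, 71.3 and 89.3 in OAT-1746, 61.3 and 56.2 in anti-PD-1, and 60.0, 63.4 and 61.7 in COMB. Both OAT-1746 libraries were above the other 7 (log2 fold change 0.49, SE 0.16, unadjusted p = 0.0124), and without replicate 2 the value was 0.33. Rab10, the most abundant of the class per kb, stood at 203 and 218 CPM in CTR and 196 and 167 CPM in OAT-1746 (log2 fold change -0.22, SE 0.17, unadjusted p = 0.234), with -0.095 without replicate 2. Rab8b, the paralog of Rab8a, differed little, with 279 and 288 CPM in CTR and 295 and 304 CPM in OAT-1746 (log2 fold change 0.08, SE 0.14, unadjusted p = 0.580). Rab13, known from epithelial junctions, had only 88 and 73 raw counts in CTR and 68 and 21 in OAT-1746, so its log2 fold change of -0.89 (SE 0.49, unadjusted p = 0.104) is imprecise: it was -0.26 without OAT-1746 replicate 2 and -1.99 without replicate 1. Rab3a, the paralog of Rab3d, was also sparse, at 4.32 and 5.06 CPM in CTR and 5.47 and 8.01 CPM in OAT-1746 (log2 fold change 0.52, SE 0.29, unadjusted p = 0.109), and its value was 0.23 without replicate 2.

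Late endosomal, lysosomal and autophagic Rabs had the lowest class median in OAT-1746, -0.44 over 7 members, with a negative value for 6 of 7, beside 49.5% of all genes, and 3 of 7 lower at an unadjusted p under 0.05, beside 16.2%. Leaving out OAT-1746 replicate 2 brought the median to -0.18, with 6 of 7 again negative but 1 of 7 lower at an unadjusted p under 0.05, beside 6.33%. The class median was negative under each scaling run, from -0.44 to -0.24. Rab7b, which directs traffic from late endosomes to the trans-Golgi (ENSMUSG00000052688, chr1:131688695-131715439), stood at 69.3 and 68.6 CPM in CTR, 36.8 and 11.4 in OAT-1746, 72.3 and 78.1 in anti-PD-1, and 30.7, 48.4 and 53.3 in COMB. OAT-1746 replicate 2 was lowest, and OAT-1746 replicate 1 lay between COMB replicate 1 and COMB replicate 2, so OAT-1746 overlapped COMB but not CTR. The Rab7b difference from CTR was the largest of any member (log2 fold change -1.52, SE 0.45, unadjusted p = 0.00821), and it was -0.89 without replicate 2. Rab32, a Rab of lysosome-related organelles and of phagosomes (ENSMUSG00000019832, chr10:10545002-10558265), stood at 253 and 223 CPM in CTR, 172 and 85.1 in OAT-1746, 202 and 244 in anti-PD-1, and 206, 319 and 279 in COMB. Both OAT-1746 libraries were below all others (log2 fold change -0.89, SE 0.32, unadjusted p = 0.0215), although without replicate 2 the value was -0.46 with an unadjusted p of 0.103. Rab29, which recruits the kinase LRRK2 to the trans-Golgi and stressed lysosomes, stood at 18.1 and 25.1 CPM in CTR, 16.3 and 10.5 in OAT-1746, 24.7 and 23.4 in anti-PD-1, and 20.5, 23.7 and 21.8 in COMB. Again the OAT-1746 libraries were the lowest of the 9 (log2 fold change -0.69, SE 0.24, unadjusted p = 0.0165), with -0.40 and an unadjusted p of 0.123 when replicate 2 was left out. Rab7 itself, the main Rab of late endosomes and of phagosome maturation, stood at 450.0 and 458 CPM in CTR, 396 and 273 in OAT-1746, 424 and 471 in anti-PD-1, and 357, 403 and 419.6 in COMB. The OAT-1746 values were below CTR, and COMB replicate 1 lay between the OAT-1746 libraries (log2 fold change -0.44, SE 0.20, unadjusted p = 0.0555). Without replicate 2 the Rab7 value was -0.18 with an unadjusted p of 0.328. Rab9, which returns mannose 6-phosphate receptors to the Golgi, overlapped between the groups at 33.6 and 23.8 CPM in CTR and 26.4 and 18.2 CPM in OAT-1746. Rab12, a Rab of the path from recycling endosomes to lysosomes, was the single member of the class with a positive value (log2 fold change 0.38, SE 0.18, unadjusted p = 0.0633), which was 0.23 without replicate 2.

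The 7 members of the early endosome and phagosome had a median log2 fold change of 0.04. It turned to -0.012 with offsets for gene length and GC content and to -0.0045 without OAT-1746 replicate 2. In edgeR 0 of 7 had an unadjusted p under 0.05, beside 32.3% of all genes. DESeq2 called 0 of 7 at an adjusted p under 0.05, beside 17.3% of the genes it adjusted. Rab5c, the most abundant of the 41 members per kb in CTR, stood at 453 and 464 CPM in CTR, 382 and 228 in OAT-1746, 415 and 409 in anti-PD-1, and 364, 539 and 493 in COMB. OAT-1746 was below CTR in both libraries, with replicate 2 the lowest of the 9 (log2 fold change -0.59, SE 0.26, unadjusted p = 0.0515), and the value was -0.25 without that library. Its paralogs Rab5a and Rab5b, which share the role of fusing early endosomes, had positive values of 0.16 (SE 0.13) and 0.21 (SE 0.14). Rab20, which is induced by interferon and acts on phagosome maturation in macrophages, stood at 106 and 93.3 CPM in CTR and 90.9 and 69.8 CPM in OAT-1746 (log2 fold change -0.31, SE 0.21, unadjusted p = 0.176), with -0.12 without replicate 2. Its anti-PD-1 libraries, at 76.4 and 107 CPM, spanned most of the range of the study. Rab21, Rab22a and Rab31 of early endosomes and endosome to Golgi traffic had log2 fold changes of -0.26, 0.04 and 0.13, each within 2 standard errors of 0; that of Rab22a was -0.0045 without OAT-1746 replicate 2.

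All 5 recycling members had a positive log2 fold change in OAT-1746, beside 50.5% of all genes, with a median of 0.31, and 1 of 5 was higher at an unadjusted p under 0.05, beside 16.1%. Without OAT-1746 replicate 2 the median was 0.16, 0 of 5 had an unadjusted p under 0.05, beside 14.6% of all genes, and 4 of 5 were positive, as were 4 of 5 with offsets for gene length and GC content. Rab35, which serves fast recycling and actin at the plasma membrane, stood at 112 and 107 CPM in CTR, 137 and 156 in OAT-1746, 148 and 120.5 in anti-PD-1, and 132, 129.7 and 119 in COMB. The CTR libraries were the lowest of the 9, and OAT-1746 overlapped anti-PD-1 (log2 fold change 0.42, SE 0.16, unadjusted p = 0.0271). When replicate 2 was left out the Rab35 value was 0.33 with an unadjusted p of 0.112. Rab11a of the slow recycling endosome stood at 58.5 and 64.5 CPM in CTR and 68.3 and 84.1 CPM in OAT-1746 (log2 fold change 0.31, SE 0.18, unadjusted p = 0.120), with 0.16 without replicate 2. Rab14, which links the Golgi with endosomes and acts on phagosomes, and Rab11b overlapped CTR, with values of 0.05 and 0.09, which were -0.051 and 0.16 without OAT-1746 replicate 2. Rab4a, near the count minimum, had a value of 0.74 with an SE of 0.52, and 0.22 without replicate 2.

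The 13 members of the endoplasmic reticulum and Golgi class split in OAT-1746, with 3 higher and 2 lower at an unadjusted p under 0.05, beside 16.1% and 16.2% of all genes, and a median of 0.03. That median depended on the settings: it was 0.07 without OAT-1746 replicate 2, where 2 were higher and 0 lower beside 8.3% and 6.33% of all genes, 0.11 with library size only and 0.30 with offsets for gene length and GC content. Rab6b, the Golgi Rab6 form that is enriched in brain (ENSMUSG00000032549, chr9:103111787-103185276), stood at 32.0 and 48.7 CPM in CTR, 73.8 and 99.5 in OAT-1746, 41.9 and 50.6 in anti-PD-1, and 63.1, 35.5 and 36.2 in COMB. Both OAT-1746 libraries were above the other 7, the nearest being COMB replicate 1 (log2 fold change 1.10, SE 0.32, unadjusted p = 0.00701), and the value was 0.88 without OAT-1746 replicate 2. Rab33b, a medial Golgi Rab that binds the autophagy protein Atg16l1, stood at 14.1 and 17.2 CPM in CTR, 22.5 and 30.2 in OAT-1746, 14.8 and 14.8 in anti-PD-1, and 18.5, 15.0 and 13.7 in COMB. It too had its highest values in the OAT-1746 libraries (log2 fold change 0.75, SE 0.21, unadjusted p = 0.00605), with 0.54 and an unadjusted p of 0.0506 without replicate 2. Rab40c, which carries a SOCS box and works with a Cullin5 ubiquitin ligase (ENSMUSG00000025730, chr17:25882114-25919727), stood at 21.2 and 26.1 CPM in CTR, 34.9 and 39.6 in OAT-1746, 35.1 and 28.7 in anti-PD-1, and 26.6, 22.4 and 22.2 in COMB. OAT-1746 and anti-PD-1 were both above CTR and overlapped each other, and COMB overlapped CTR. Against CTR, Rab40c in OAT-1746 differed by 0.66 on the log2 scale (SE 0.18, unadjusted p = 0.00575), and by 0.57 without replicate 2. Rab1b stood at 193 and 209 CPM in CTR, 169 and 112 in OAT-1746, 186 and 192 in anti-PD-1, and 163, 228 and 203 in COMB. OAT-1746 was below CTR, with COMB replicate 1 between its libraries (log2 fold change -0.52, SE 0.23, unadjusted p = 0.0472), and without replicate 2 the value was -0.24. Rab1a, its paralog, had a value of -0.12 (SE 0.16). Rab19, a sparse member, had 75 and 64 raw counts in CTR, 49 and 17 in OAT-1746, 102 and 82 in anti-PD-1, and 51, 50 and 41 in COMB. Scaled to CPM, the OAT-1746 libraries were the lowest of the 9, at 2.85 and 0.973, with COMB replicate 3 close to replicate 1 at 2.91 (log2 fold change -1.11, SE 0.46, unadjusted p = 0.0391). Without replicate 2 the Rab19 value was -0.52. Rab6a, Rab2a and Rab18 had values of -0.31, 0.03 and -0.01, which were -0.18, 0.072 and 0.027 without OAT-1746 replicate 2. The sign of Rab2a turned without replicate 1 (-0.012). Rab34, linked to macropinosomes and phagosomes, and Rab43, linked to the Golgi and phagosomes, had values of 0.61 (SE 0.28) and -0.59 (SE 0.31).

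**Figure D2:**
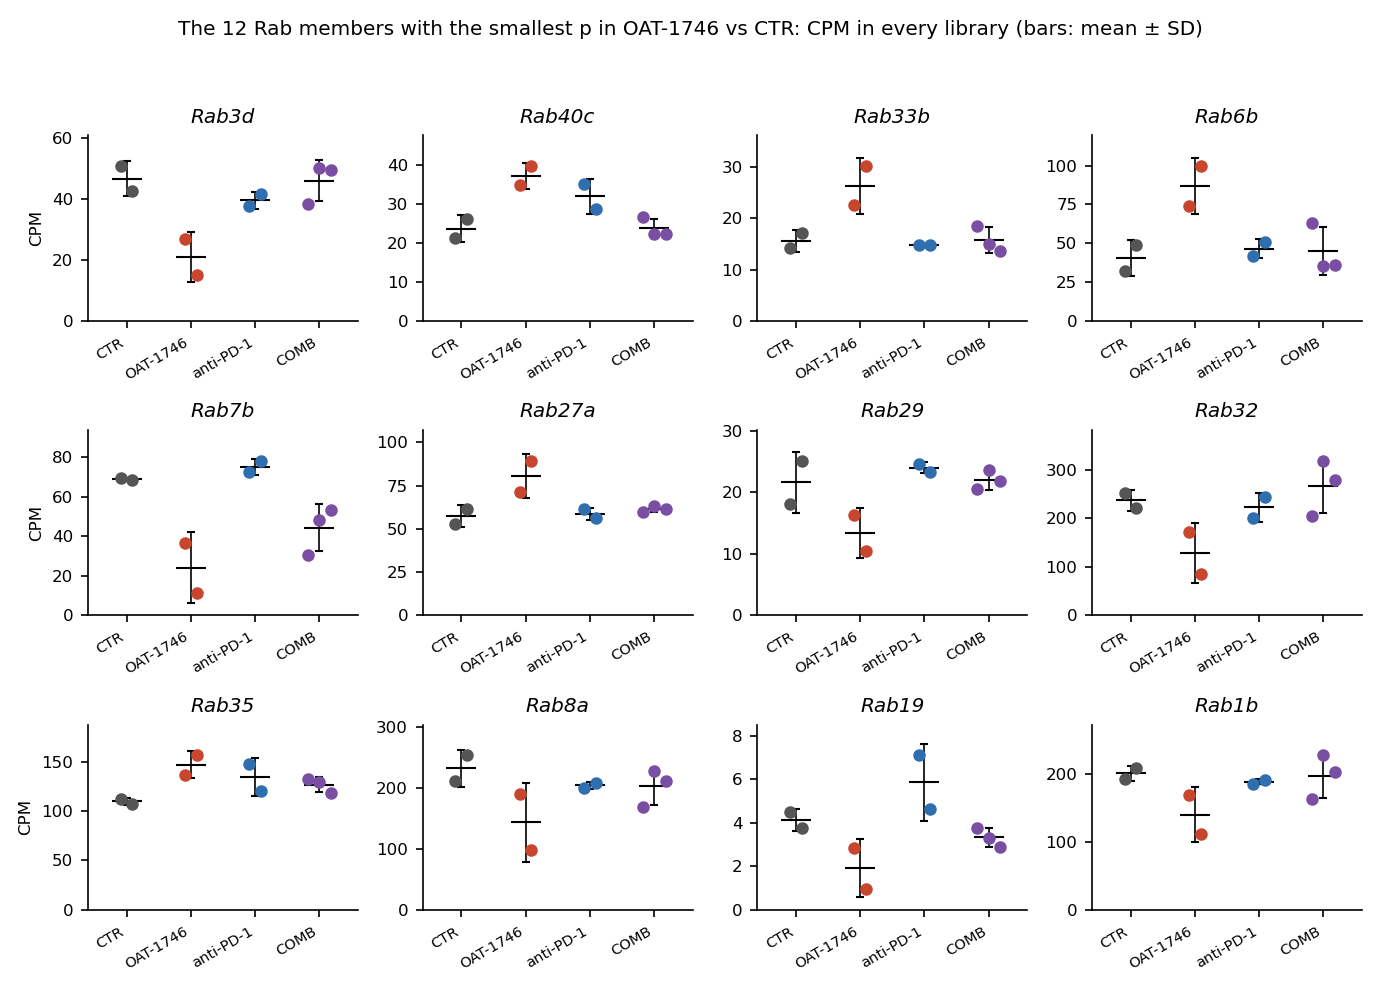
CPM (vertical axes, from 0) of the 12 members with the smallest unadjusted p in OAT-1746 vs CTR, in each library by group (horizontal axes); points are libraries and bars are group mean ± SD. Rab3d, Rab32, Rab29 and Rab19 have their lowest values in OAT-1746, and Rab6b, Rab33b and Rab27a their highest.

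To show the sequence in front of the members with the smallest p, promoter windows of 300 bases around the transcription start were taken from RefSeq (GRCm38.p6), where 37 of 41 members had one. The members' windows had a median GC content of 63.3%, against 52.7% over 32851 promoters. That larger set held several windows for some genes and was not limited to genes expressed here, while each member gave 1. The GC and motif values of both sets are therefore not like for like. CACGTG, the E-box read by factors such as TFEB and Myc, was searched on both strands, as was TGANTCA, the AP-1 element, and the 2 motifs can share the letters CA. CACGTG was in 5 of 37 members' windows (13.5%) and in 7.15% of all promoters. TGANTCA was in 1 of 37 (2.7%), that of Rab34, and in 7.81% of all promoters. Rab5a held 2 copies of CACGTG, and Rab20, Rab21, Rab23 and Rab24 held 1 each. Of the 12 members with the smallest p, 11 had a window and 0 of 11 held either motif. The windows of Rab3d (chr9:21918134-21918433, minus strand) and Rab40c (chr17:25919665-25919964, minus strand), the members with the smallest p, follow, with that of Rab5a (chr17:53478984-53479283, plus strand), which was added after the motif counts were seen. All run 5′ to 3′ along the gene, and capitals mark CACGTG.
Rab3d: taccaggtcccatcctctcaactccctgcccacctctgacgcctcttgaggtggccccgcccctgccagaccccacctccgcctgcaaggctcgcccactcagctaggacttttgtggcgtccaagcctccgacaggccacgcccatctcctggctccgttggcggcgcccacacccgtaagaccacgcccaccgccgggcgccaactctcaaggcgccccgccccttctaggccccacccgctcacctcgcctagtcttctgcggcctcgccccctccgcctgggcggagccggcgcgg
Rab40c: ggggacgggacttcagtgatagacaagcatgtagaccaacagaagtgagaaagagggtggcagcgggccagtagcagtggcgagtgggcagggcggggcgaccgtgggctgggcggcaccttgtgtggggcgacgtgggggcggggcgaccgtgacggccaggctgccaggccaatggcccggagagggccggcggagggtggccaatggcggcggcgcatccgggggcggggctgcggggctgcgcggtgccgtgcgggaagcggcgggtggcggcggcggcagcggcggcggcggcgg
Rab5a: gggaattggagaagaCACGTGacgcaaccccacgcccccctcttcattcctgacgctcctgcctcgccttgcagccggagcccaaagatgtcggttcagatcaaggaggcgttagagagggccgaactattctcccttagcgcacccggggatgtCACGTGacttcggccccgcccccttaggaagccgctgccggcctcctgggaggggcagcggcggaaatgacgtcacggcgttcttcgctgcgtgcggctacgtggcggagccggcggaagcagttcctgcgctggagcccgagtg

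Members with the same number form subfamilies of close paralogs, and 10 such pairs from 8 subfamilies were set side by side as ratios of counts per kb within each library. These ratios were chosen after the data were seen and are a description. Both OAT-1746 libraries were above the range of the other 7 for 3 of 10 pairs, below it for 3, and neither for 4; 6 pairs are given here. The ratio of Rab6a to Rab6b was 4.01 and 2.81 in CTR, 1.58 and 0.978 in OAT-1746, 2.72 and 2.71 in anti-PD-1, and 1.88, 3.81 and 3.97 in COMB. OAT-1746 had the lowest ratios of the 9 libraries, with COMB replicate 1 nearest to them. The ratio of Rab3a to Rab3d was 0.160 and 0.223 in CTR, 0.383 and 0.992 in OAT-1746, 0.290 and 0.202 in anti-PD-1, and 0.302, 0.165 and 0.175 in COMB. Here OAT-1746 had the highest ratios, Rab3a being positive and Rab3d negative against CTR. The ratio of Rab7 to Rab7b was 11.5 and 11.8 in CTR, 19.1 and 42.5 in OAT-1746, 10.4 and 10.7 in anti-PD-1, and 20.6, 14.7 and 13.9 in COMB. OAT-1746 was above CTR, although COMB replicate 1 lay above OAT-1746 replicate 1. The ratio of Rab8a to Rab8b was 0.764 and 0.892 in CTR, 0.651 and 0.324 in OAT-1746, 0.817 and 0.859 in anti-PD-1, and 0.690, 0.937 and 0.868 in COMB. OAT-1746 was lowest, and replicate 1 was close to COMB replicate 1. The ratio of Rab5b to Rab5c was 0.137 and 0.142 in CTR, 0.196 and 0.319 in OAT-1746, 0.162 and 0.147 in anti-PD-1, and 0.189, 0.141 and 0.135 in COMB. Both OAT-1746 libraries were again outside the range of the other 7. The ratio of Rab5a to Rab5b ran from 0.353 to 0.515 over the other 7 libraries and was 0.374 and 0.403 in OAT-1746, within that range.

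**Figure D3:**
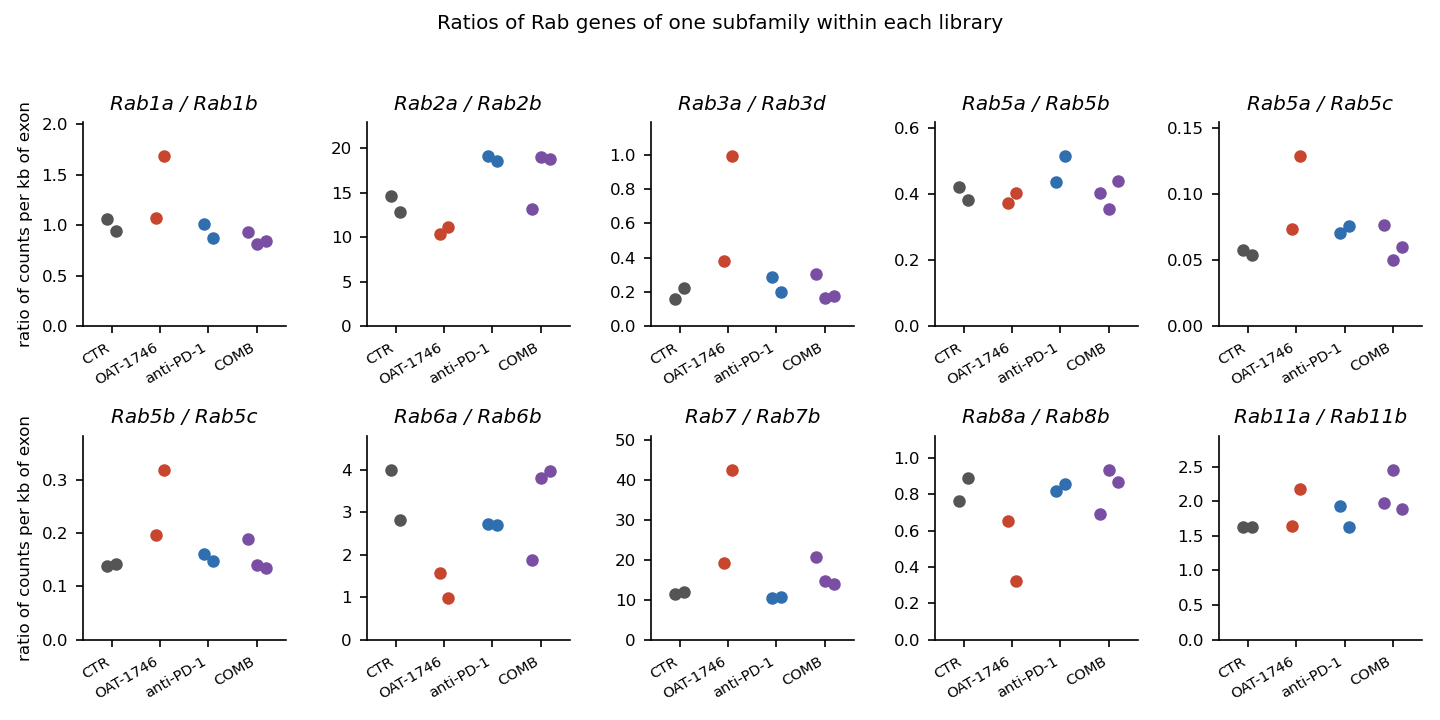
Ratio of counts per kb of exon (vertical axes, from 0) between paralogs of 1 Rab subfamily in each library, by group (horizontal axes); each point is a library. Rab6a / Rab6b is lowest in OAT-1746 (1.58 and 0.978) and Rab3a / Rab3d highest (0.383 and 0.992).

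Markers of the cell types that the sort could hold also differed in these libraries. The microglia list (9 of 9 genes found) summed to 9335 and 15267 CPM in CTR, 20788 and 26141 in OAT-1746, 13936 and 11861 in anti-PD-1, and 17143, 12306 and 11686 in COMB, with Cx3cr1 as the most abundant of the 9. All 9 had higher values in OAT-1746, each at an unadjusted p under 0.05 in edgeR against CTR, beside 16.1% of all genes. The list of monocytes and macrophages (11 of 11 found, Lyz2 most abundant) summed to 7512 and 7360.2 CPM in CTR, 5896 and 1467 in OAT-1746, 7582 and 8701 in anti-PD-1, and 6049, 5946 and 6225 in COMB. All 11 had a negative value in OAT-1746, 6 of them at an unadjusted p under 0.05, beside 16.2%, and OAT-1746 replicate 2 was far below all other libraries. The OAT-1746 replicates differed widely in Ly6c2, a marker of inflammatory monocytes, with 929 and 39.7 CPM, against 303 and 692 in CTR. Replicate 1 was also above both CTR libraries for Plac8 (663 against 345 and 578 CPM) and Vcan (28.1 against 19.6 and 19.6 CPM). Replicate 2 was below both for each of these genes. S100a4 of the same list had 0 counts in OAT-1746 replicate 2 and 2 in replicate 1. The proliferation list (6 of 6 found, Top2a most abundant) summed to 85.7 and 82.5 CPM in CTR, 39.7 and 12.8 in OAT-1746, 36.4 and 66.2 in anti-PD-1, and 50.3, 54.3 and 58.1 in COMB. OAT-1746 replicate 2 was lowest, and 5 of 6 genes were lower in OAT-1746 at an unadjusted p under 0.05, beside 16.2% of all genes.

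Border-associated macrophage markers (6 of 6 found, Mrc1 most abundant, 1 gene shared with the monocyte list) summed to 556 and 610.4 CPM in CTR, 464 and 475 in OAT-1746, 442 and 462 in anti-PD-1, and 476, 519 and 523 in COMB. The lower sum in OAT-1746 went with Ms4a7, the shared gene, at 305 and 306 CPM in CTR and 115 and 32.8 CPM in OAT-1746, while 4 of 6 had a positive value there, the list's median was 0.44, and Mrc1 and Cd163 were higher at an unadjusted p under 0.05. Neutrophil markers (10 of 10 found, Csf3r most abundant) summed to 319 and 485 CPM in CTR, 524 and 685 in OAT-1746, 379 and 375 in anti-PD-1, and 437, 436 and 432 in COMB. Csf3r made up most of that sum. At an unadjusted p under 0.05, 4 of 10 neutrophil genes were higher and 0 lower in OAT-1746 vs CTR, 3 higher (Camp, S100a8 and S100a9) and 0 lower in COMB vs CTR, and 4 higher (these and Ltf) and 1 lower in COMB vs anti-PD-1, with all-gene shares of 16.1% and 16.2%, 3.21% and 3.37%, and 1.98% and 5.26%. NK cell markers (10 of 10 found, Klrk1 most abundant) summed to 80.4 and 88.2 CPM in CTR, 114 and 26.3 in OAT-1746, 338 and 203 in anti-PD-1, and 89.9, 175 and 187 in COMB. The NK sum was highest in anti-PD-1 and lowest in OAT-1746 replicate 2. In anti-PD-1 against CTR all 10 NK genes had a positive value, with a median log2 fold change of 2.204, and 8 were higher at an unadjusted p under 0.05, beside 3.18% of all genes; edgeR called 0 at an adjusted p under 0.05 and DESeq2 called 3. In COMB against CTR all 10 were again positive, with a median of 1.35 and 4 of 10 higher at an unadjusted p under 0.05, beside 3.21%. In COMB against anti-PD-1 all 10 were negative, with a median of -0.86, and 2 were lower at an unadjusted p under 0.05, beside 5.26%. Dendritic cell markers (7 of 7 found, Ccr7 most abundant, 6 of 7 with a negative value in OAT-1746) ran from 65.5 CPM in OAT-1746 replicate 2 to 135 CPM in anti-PD-1 replicate 1. T cell markers (8 of 9 found) ran from 45.7 to 93.2 CPM and B cell markers (5 of 5 found) from 10.5 to 25.8 CPM. Neuronal markers (8 of 8 found, Map2 most abundant) were higher in OAT-1746, at 16.8 and 21.5 CPM, than in the other 7 libraries, which all had under 10 CPM. Sums ran from 219 to 380 CPM for oligodendrocytes (6 of 6 found), 26.3 to 80.6 for astrocytes (5 of 5), 134 to 218 for endothelial cells (6 of 6) and 0.845 to 30.7 for erythroid cells (5 of 5). The astrocyte sums in COMB, at 80.6, 47.1 and 57.6 CPM, were above those of every other library. In COMB vs CTR 4 of 5 astrocyte genes were higher at an unadjusted p under 0.05 in edgeR, beside 3.21% of all genes, with a median of 1.15. No gene of these lists was at 0 in all libraries. The part of these markers in the Rab results was not tested.

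**Figure D4:**
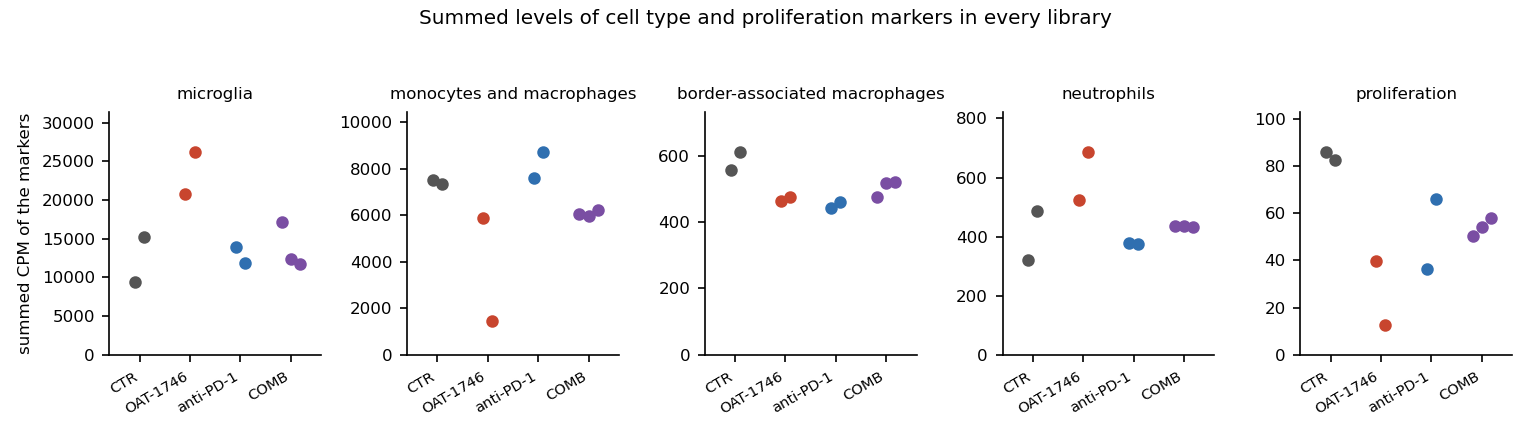
Summed CPM (vertical axes, from 0) of marker lists in each library, by group (horizontal axes); each point is a library. Microglia markers are highest in OAT-1746 (20788 and 26141 CPM), and markers of monocytes and macrophages are lowest in OAT-1746 replicate 2 (1467 CPM).

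Regulators of Rab proteins were counted from a list of 142 genes, of which 136 were tested. In OAT-1746 vs CTR, 32 of 136 were higher and 15 lower at an unadjusted p under 0.05 (34.6%, beside 32.3% of all genes; by direction, beside 16.1% higher and 16.2% lower), and edgeR called 0 at an adjusted p under 0.05 while DESeq2 called 17 higher and 5 lower, beside 17.3% of all genes it adjusted. Without OAT-1746 replicate 2, 15 of 136 were higher and 3 lower at an unadjusted p under 0.05, beside 14.6% of all genes in both directions. The median log2 fold change of the regulators was 0.20, beside 0.03 for the Rab members and 0.01 for all genes, and 0.11 without replicate 2. By function, with the same shares over all genes, 9 of 32 exchange factors were higher and 2 lower, 12 of 35 GAPs were higher and 3 lower, and 7 of 44 effectors were higher and 8 lower. Among tethers (HOPS, CORVET and exocyst) 4 of 17 were higher and 1 lower, and among the 8 genes of delivery and prenylation 0 were higher and 1 lower. Without replicate 2 these were 6 and 1 for exchange factors, 5 and 1 for GAPs, 2 and 1 for effectors, 2 and 0 for tethers and 0 and 0 for delivery and prenylation, beside 8.3% and 6.33% of all genes. In the other comparisons the regulators' median was 0.06 for anti-PD-1 vs CTR, -0.08 for COMB vs CTR, -0.11 for COMB vs anti-PD-1 and -0.31 for the interaction. At an unadjusted p under 0.05, 0 were higher and 10 lower in COMB vs anti-PD-1, beside 1.98% and 5.26% of all genes, and 9 were higher and 32 lower for the interaction, beside 11.8% and 14.4%. The 8 regulators with the smallest unadjusted p, named for that p, were all higher in OAT-1746, also without replicate 2, at an unadjusted p under 0.05. Mlph, which ties Rab27a to myosin Va, stood at 24.9 and 34.7 CPM in CTR, 70.5 and 80.9 in OAT-1746, 32.1 and 33.7 in anti-PD-1, and 44.3, 28.6 and 30.2 in COMB. Its OAT-1746 libraries were above the other 7, as Rab27a's were (log2 fold change 1.34, SE 0.24, unadjusted p = 0.000334). Hps4, part of the exchange factor for Rab32 and Rab38, stood at 79.1 and 104 CPM in CTR, 175 and 252 in OAT-1746, 108 and 114 in anti-PD-1, and 117, 87.2 and 93.6 in COMB. It was highest in OAT-1746, where Rab32 was lowest (log2 fold change 1.22, SE 0.23, unadjusted p = 0.000462). Rilpl1, an effector of phosphorylated Rab8a and Rab10, had 28.2 and 38.9 CPM in CTR and 62.2 and 88.2 CPM in OAT-1746, and Vps18, a core subunit of HOPS and CORVET, had 141 and 141 CPM in CTR and 195 and 289.8 CPM in OAT-1746. Their log2 fold changes were 1.16 (SE 0.26) and 0.78 (SE 0.20), and that of Vps18 was 0.48 without replicate 2. The DENN-domain proteins Dennd2c, Dennd4a and Sbf2 had log2 fold changes of 1.02, 1.06 and 1.04, and Tbc1d23, a TBC-domain protein of the trans-Golgi, 0.69.

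With anti-PD-1 alone, the members lay close to CTR. The comparison asks what the antibody did by itself, and the median log2 fold change over the members was 0.00, beside 0.02 over all genes. In edgeR 0 of 41 members passed the adjusted p (0% of all genes) and 1 of 41 had an unadjusted p under 0.05, beside 5.12%; DESeq2 called 0 of 41, beside 0.112%. The single member was Rab40c (log2 fold change 0.43, SE 0.18, unadjusted p = 0.0418). In COMB against CTR, which asks what both agents did together, the median was 0.02, beside -0.00 over all genes. Again 0 of 41 passed the adjusted p in edgeR (0% of all genes), 1 of 41 had an unadjusted p under 0.05, beside 6.58%, and DESeq2 called 0 of 41, beside 0.279%. That member was Rab24, a Rab linked to autophagy, at 20.0 and 24.6 CPM in CTR, 20.3 and 18.2 in OAT-1746, 28.6 and 24.1 in anti-PD-1, and 24.2, 34.8 and 33.1 in COMB. COMB replicates 2 and 3 were the highest of the 9 libraries, and COMB replicate 1 lay within the CTR range (log2 fold change 0.46, SE 0.19, unadjusted p = 0.0421). These comparisons share the CTR libraries with that of OAT-1746.

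COMB against anti-PD-1 asks what OAT-1746 added to the antibody, and it shares no library with OAT-1746 against CTR. The members' median was 0.06, beside -0.01 over all genes. No member passed the adjusted p in edgeR (0 of 41, beside 0%), 1 of 41 had an unadjusted p under 0.05, beside 7.23%, and DESeq2 called 0 of 41, beside 0.434%. It was Rab40c, now lower (log2 fold change -0.43, SE 0.17, unadjusted p = 0.0291). Of the 12 members with the smallest p in OAT-1746 vs CTR, 6 had the same sign in COMB vs anti-PD-1, beside 33.3% of all genes with an unadjusted p under 0.05 in OAT-1746 vs CTR: Rab33b, Rab7b, Rab27a, Rab29, Rab8a and Rab19. That count ran from 4 to 8 under the alternatives, since several values in COMB vs anti-PD-1 were near 0; that of Rab8a was -0.012 (SE 0.26) and turned sign under 12 of 20. Over the 41 members 19 had the same sign in both (46.3%), beside 43.2% of all genes, and the correlation of the log2 fold changes was 0.20 across members and -0.09 across all genes, which are not independent replicates. Rab7b was lower in both, with -1.52 without and -0.77 with the antibody (SE 0.40, unadjusted p = 0.0845 in the latter). Rab19 likewise had -0.81 with the antibody (SE 0.40, unadjusted p = 0.0727), a value that ran from -1.09 to -0.476 over the 20 alternatives.

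**Figure D5:**
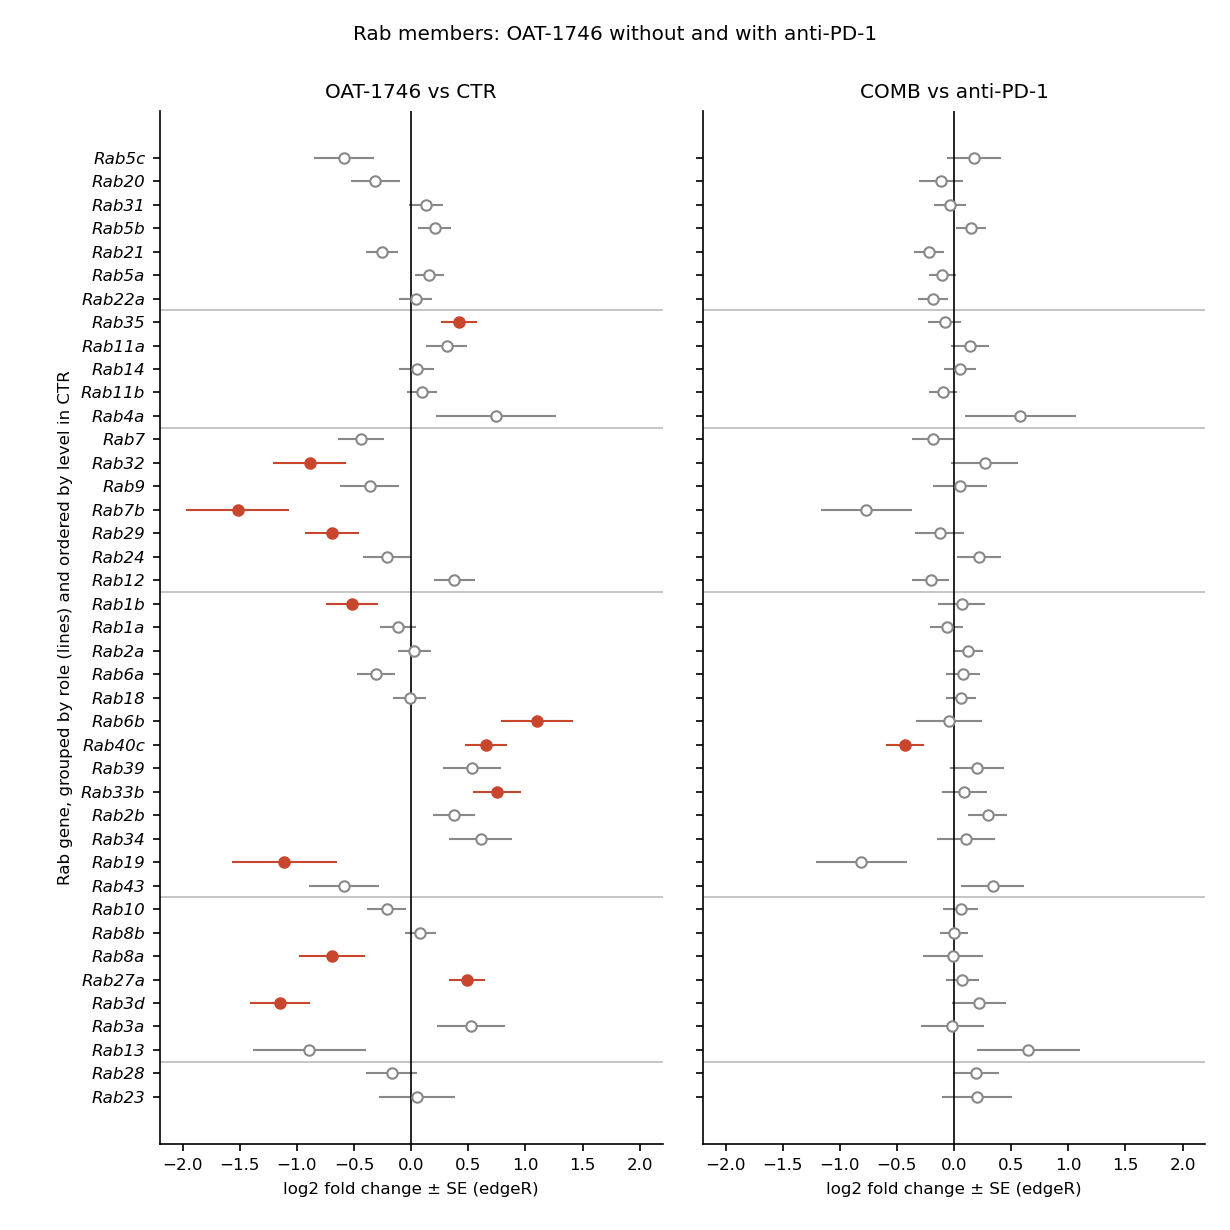
Log2 fold change ± SE from edgeR (horizontal axes) of each of the 41 members (vertical axis, grouped by role) in OAT-1746 vs CTR (left) and COMB vs anti-PD-1 (right); filled red points have an unadjusted p under 0.05. There are 12 red points on the left and 1, Rab40c, on the right.

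Whether the OAT-1746 effect differed with and without the antibody was tested as an interaction, the COMB minus anti-PD-1 difference less the OAT-1746 minus CTR difference. The members' median was 0.05, beside -0.02 over all genes. In edgeR 0 of 41 members passed the adjusted p, beside 0.359% of all genes, and 8 of 41 had an unadjusted p under 0.05, beside 26.2%. DESeq2 called 2 of 41, Rab3d and Rab40c, beside 9.05% of the genes it adjusted. Rab40c had an interaction of -1.08 on the log2 scale (SE 0.25, unadjusted p = 0.00167): OAT-1746 was above CTR, and COMB was below anti-PD-1. For Rab3d it was 1.37 (SE 0.35, unadjusted p = 0.00369), with the low values in OAT-1746 alone and COMB near CTR. Rab6b and Rab32 had interactions of -1.15 (SE 0.43) and 1.15 (SE 0.43). Markers of cell types differed in this test as well. All 9 microglia markers (median -0.84) and all 7 neuronal markers tested (median -1.58) were negative, beside 51.3% of all genes. All 6 proliferation markers (median 1.86) and 8 of 11 markers of monocytes and macrophages (median 0.66) were positive, beside 48.7%. Their part in the Rab interactions was not tested. Members passed the adjusted p in edgeR in some fits without 1 library. Without OAT-1746 replicate 2, 3 of 41 members had an unadjusted p under 0.05 for the interaction, beside 17.2% of all genes, with -0.98 for Rab40c, 1.03 for Rab3d and 0.75 for Rab32, while Rab6b had -0.89 with an unadjusted p of 0.0799.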

How the data were processed

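The deposited values are raw HTSeq-count read counts per gene for 9 libraries. Before counting, the authors had used Trimmomatic, STAR (mm10) and Picard, which flagged duplicates, and their own tests were run in DESeq2. Of 53801 genes in the table, 53620 matched the GENCODE M21 annotation, which gave symbols, positions and exon lengths, and 21890 were protein-coding. Tests used edgeR 4.0.16 in R 4.3.3 (TMM, quasi-likelihood, a mean for each of the 4 groups, all 9 libraries, 12538 genes after edgeR's low-count filter), with Benjamini-Hochberg adjustment over all genes and a threshold of 0.05. SE is the log2 fold change divided by the square root of F. The edgeR, DESeq2 and limma fits with default settings were run on simulated counts, and the other steps were not. Named members were the 12 with the smallest unadjusted p in OAT-1746 vs CTR, up to 4 with an unadjusted p under 0.05 in each other comparison, the most abundant of each role, the paralogs of named members, 3 on each side of the count minimum, and the 8 regulators with the smallest p. Other members and marker genes in the text lie outside that rule; they were added to describe their classes and lists, after their values were seen. Alternatives were DESeq2 1.42.0, limma 3.58.1 (voom with quality weights), other scalings and filters, all genes, a replicate block, offsets for gene length and GC content, the compared groups only, and each library left out. Python 3.11.15 and matplotlib 3.10.9 drew the figures. The members and lists were chosen with earlier results of these data known. Reads of close Rab paralogs can be shared, so their counts are less certain. One marker gene is not reported here and was left out of its list.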

Additional observations from a re-analysis of the deposited data

Results flagged for a closer look

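In edgeR's test of whether the OAT-1746 effect differed with and without anti-PD-1, 8 of 41 members (19.5%) had an unadjusted p under 0.05. That share was below the 26.2% of all genes, so the members did not stand out from them. None of the 8 passed the adjusted p in edgeR. DESeq2 called 2 of 41 (4.88%), Rab3d and Rab40c, again below the 9.05% of the genes it adjusted. The differences, on the log2 scale and as COMB minus anti-PD-1 less OAT-1746 minus CTR, were negative for Rab40c (-1.08, unadjusted p = 0.00167), Rab6b (-1.15, 0.0247), Rab12 (-0.58, 0.0388), Rab35 (-0.50, 0.0439) and Rab33b (-0.66, 0.0461). They were positive for Rab3d (1.37, unadjusted p = 0.00369), Rab32 (1.15, 0.0258) and Rab13 (1.54, 0.0459). All 9 microglia markers had a negative value for this difference, beside 51.3% of all genes. All 6 proliferation markers had a positive value, beside 48.7%. The part of these markers in the Rab values was not tested. Without OAT-1746 replicate 2, Rab40c, Rab3d and Rab32 kept an unadjusted p under 0.05 and the other 5 did not; the difference was 0.75 for Rab32, 0.94 for Rab13 and -0.42 for Rab33b. Over all genes, 26.2% had an unadjusted p under 0.05 in the same test, and 17.2% without that library.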

How the results depend on the processing

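Of the 41 members, 36 kept the sign of their OAT-1746 vs CTR value under all 20 alternatives; Rab23, Rab14, Rab22a, Rab2a and Rab18, all near 0, did not. For COMB vs anti-PD-1, of the 12 members with the smallest p in OAT-1746 vs CTR, Rab8a turned sign under 12 of 20, Rab6b under 5, and Rab33b, Rab35 and Rab1b under 2 each. The 8 members with an unadjusted p under 0.05 for the interaction kept its sign under the 19 alternatives that allow it, and the 8 named regulators kept an unadjusted p under 0.05 in OAT-1746 vs CTR throughout; medians near 0 did change sign. For OAT-1746 vs CTR, the members' median was 0.11 with library size only, where the median of all genes moved to 0.10. The count at an unadjusted p under 0.05 was 7 with the compared groups only, where 12.7% of all genes were higher and 9.83% lower. Members called numbered 6 in DESeq2, beside 17.3% of the genes it adjusted, and 1 without a low-count filter, given without such a share. With length and GC offsets 10 were higher, beside 16.2% of all genes. Under the replicate block with those offsets 3 were lower, beside 10.6%, and with the compared groups only 3 were lower, beside 9.83%. For anti-PD-1 vs CTR the count was 0 with library size only, DESeq2, the replicate block, length and GC offsets, both together, all genes and the compared groups only. For COMB vs CTR it was 3 with library size only, voom and 10 counts in every library, 2 without a filter and with the compared groups only, and 0 under the replicate block with or without the offsets. For COMB vs anti-PD-1 it was 0 with library size only, DESeq2 and the replicate block with or without the offsets, 4 with voom, 2 with the offsets and 3 with the compared groups only. For the interaction, the median was -0.0422 with library size only, where the median of all genes was -0.11, and -0.0523 with the offsets and -0.0524 with the offsets and the block; the count was 2 under the replicate block with or without the offsets, and DESeq2 and voom each called 2. The cause was not tested. For comparisons other than OAT-1746 vs CTR, these counts stand without the shares of all genes, so they say nothing about the members alone. Leaving out 1 library at a time, the OAT-1746 count ran from 3 to 19, members called from 0 to 14, higher from 0 to 7 and lower from 2 to 12. The anti-PD-1 median ran from -0.0654 to 0.0634 and its count from 0 to 2, the COMB vs CTR median from -0.0223 to 0.0786 and its count from 0 to 3, the COMB vs anti-PD-1 count from 0 to 4, the interaction count from 2 to 16 and members called in it from 0 to 8. The ranges without 1 library, those of OAT-1746 vs CTR included, stand without the shares of all genes. In OAT-1746 vs CTR that share also moved with the library left out. The ranges therefore say nothing about the members alone. A lone library left in a group is assumed to vary like the others. The differences between replicates 1 and 2, compared between groups, correlated from -0.32 to 0.08. With so few libraries in a group, these values cannot decide whether same-numbered libraries were paired. Groups of 2 and 3 libraries and low counts, as for Rab4a, Rab13 and Rab19, limit precision. The subfamily ratios and the Rab5a promoter were chosen after seeing the data.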
